A study of Bos taurus with 4 samples.

Results

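Genes for proteins of the mitochondrial ribosome were followed in bovine gamma delta T cells exposed to an apple polyphenol extract. They were chosen by name, as every gene whose single platform symbol was MRPL or MRPS followed by a digit, and 67 genes on 84 probe sets met this rule among 9155 genes on the array. Of these, 43 carried MRPL symbols, given to large subunit proteins, and 24 carried MRPS symbols, given to small subunit proteins with exceptions given where they are described, and 53 were measured by 1 probe set and 14 by several. No filter on low values was applied, so all 67 were tested.

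The cells came from the blood of 2 calves, numbered 301 and 303, and had been sorted to a stated purity above 97%. The sample labels put calf age at 1 to 6 months, and the series design calls the animals neonatal. After a night of rest the cells of each calf received the polyphenol extract (APP) at 42.2 µg/ml or phosphate-buffered saline (PBS) for 4 h, giving 2 APP and 2 PBS arrays. No genotype, breed or sex is given for the calves, and the extract is described only as aqueous. Each value is a probe set's signal relative to its median across all arrays, on the log2 scale, and shows changes but no levels.

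The mitochondrial ribosome translates the few proteins encoded in mitochondrial DNA, all of them subunits of the respiratory chain and ATP synthase. Its ribosomal RNAs are made inside the organelle, whereas every one of its proteins is encoded in the nucleus, made in the cytosol and imported. Some of these proteins have a counterpart in the bacterial ribosome, and others are found only in mitochondria. Lymphocytes enlarge their mitochondria when activated, and mitochondrial translation is needed for their full response.

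With APP the family moved both ways. Rises were seen for 23 of the 67 genes (34.3%) and falls for 14 (20.9%), and the other 30 did not pass (limma with the calf as a block, adjusted p under 0.05 over all genes), where 23% of all 9155 genes rose, 29.7% fell and 52.7% passed in either direction. The median log2 change was 0.06 (0.10 in calf 301 and 0.02 in calf 303), against 0.01 for all genes. The interquartile range of the members ran from -0.20 to 0.51, and that of all genes from -0.40 to 0.27. The size of a change regardless of sign was alike, with a median of 0.313 for the members and 0.315 for all genes. The difference between the shares of the family and of all genes was not tested. In bulk samples fewer cells of a type and less RNA per cell cannot be told apart. The labels do not say whether arrays came from separate cultures within a calf, and p-values rest on the spread of the 2 calves around their mean change (1 residual degree of freedom) together with a variance shared across genes (5.86 prior degrees of freedom).

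These directions are relative to the typical gene on each array. The bacterial hybridization controls bioB, bioC and bioD read higher on the APP array by 0.761 in calf 301 and by 0.941 in calf 303. The cre controls read higher by 0.199 and 0.278, and the dap, lys, phe and thr controls by 0.641 and 0.289. When arrays were scaled to bioB, bioC and bioD alone, the median of all genes moved to -0.84 and that of the members to -0.79. On that scale 2 members (MRPL15 and MRPS7) rose and 52 fell, beside 3.12% and 89.4% of all genes. The adjusted p of the members there followed the size of the change alone, whatever the gap between the calves. These calls therefore act as a cut on size, which MRPS7 passed at 0.33 and MRPL48 did not at -0.27. Of the 23 members that rose as deposited, 13 did not pass on that scale, and 8 fell, namely MRPS30, MRPL35, MRPL21, MRPL37, MRPL4, MRPL24, MRPS2 and MRPS18B. What made these controls read higher with APP was not tested. The median of the members stood 0.05 above that of all genes. This gap is the same in either scaling by construction, since the scaling shifts every gene of an array alike.

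**Figure D1:**
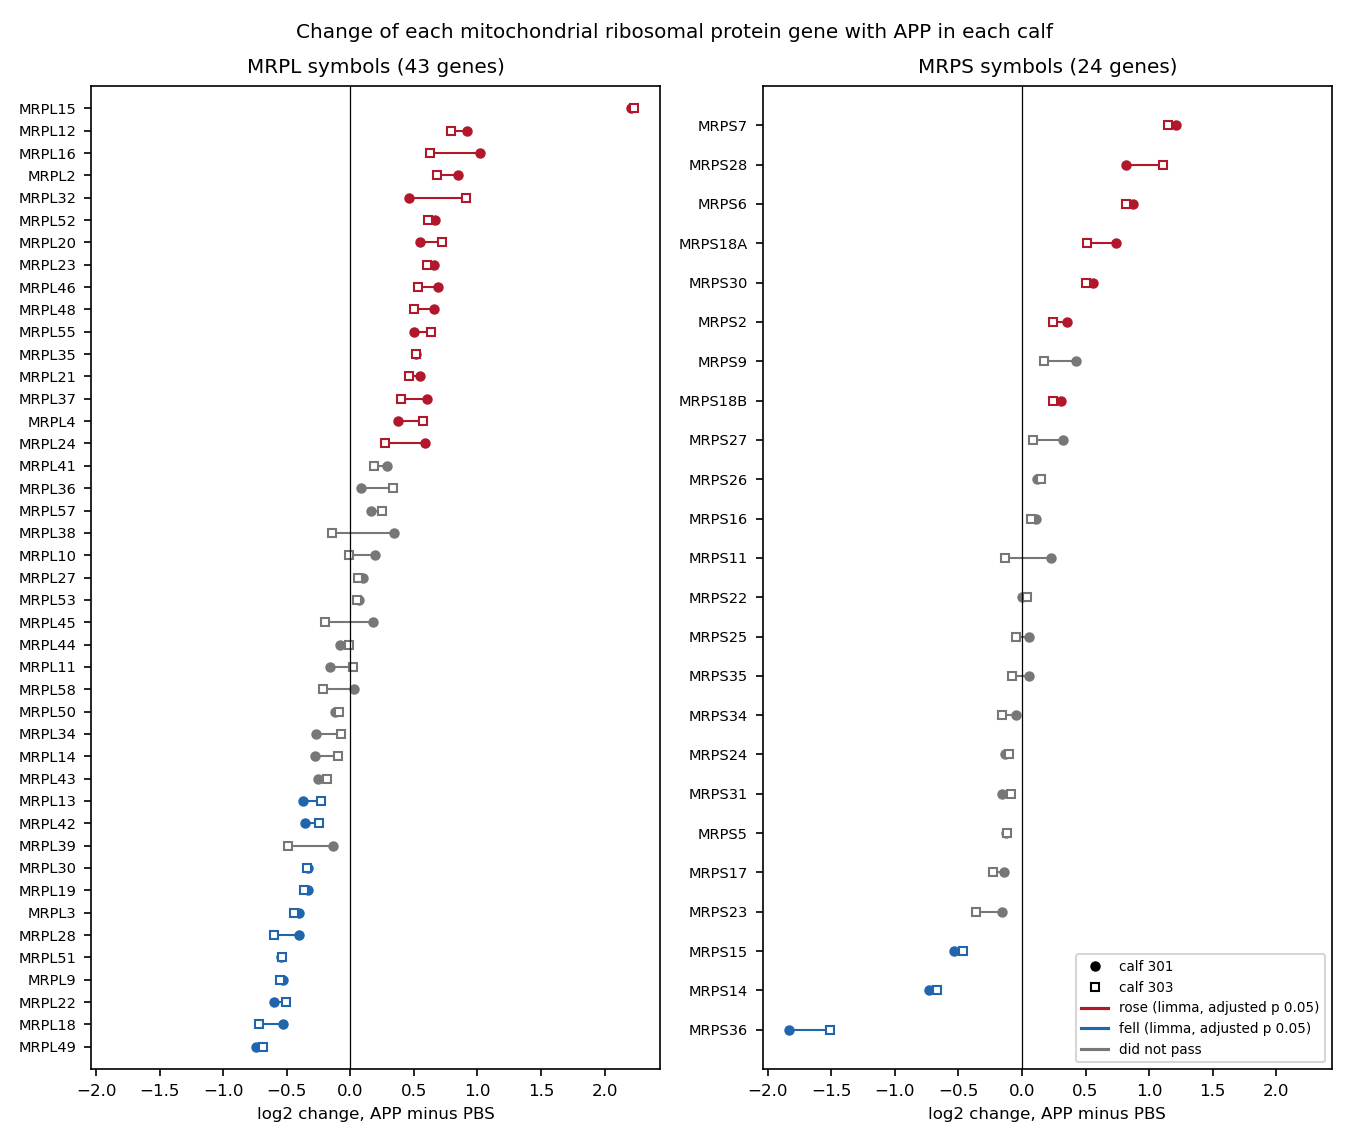
Log2 change, APP minus PBS, of each of the 43 MRPL genes (left) and 24 MRPS genes (right), with a filled circle for calf 301 and an open square for calf 303, joined by a line whose colour gives the call. The 2 symbols of a gene lie close together for most genes, MRPL15 stands apart at 2.21 and 2.24, and MRPS36 stands apart at -1.84 and -1.51.

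MRPL15, a large subunit protein with a bacterial counterpart, changed the most. It read -1.54 and -1.40 on the PBS arrays of calves 301 and 303 and 0.67 and 0.83 on their APP arrays. Both APP values lay above both PBS values, and the calves differed by 0.03 in their change. The rise was 4.66-fold (log2 change 2.22 ± 0.02, SD, n = 2 calves, adjusted p = 1.43e-05 in limma), which put it at rank 67 of all genes in the size of the rise.

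MRPS7, whose bacterial counterpart starts the folding of the small subunit's head, had the next largest rise. Its values were -0.84 and -0.56 with PBS and 0.38 and 0.59 with APP. It rose 2.27-fold (1.18 ± 0.04, adjusted p = 9.25e-05, limma). MRPL15 and MRPS7 were the members that rose at least 2-fold in both calves, which 3.5% of all genes did.

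MRPS28, a relative of bacterial S1, read -0.60 and -0.30 with PBS and 0.21 and 0.81 with APP, and rose 1.95-fold (0.96 ± 0.21, adjusted p = 0.000399, limma). Its 2 probe sets gave 0.86 and 1.07. MRPS6, also a small subunit protein with a bacterial counterpart, went from -0.51 and -0.47 to 0.37 and 0.34 (1.80-fold, 0.84 ± 0.04, adjusted p = 0.000382). The calves were thus close for MRPS6 and wider apart for MRPS28, whose APP values differed by more than its PBS values.

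Among large subunit proteins, MRPL12 is the counterpart of bacterial L7/L12, the stalk protein that draws translation factors to the ribosome. It read -0.59 and -0.46 with PBS and 0.33 on both APP arrays, a 1.81-fold rise (0.85 ± 0.09, adjusted p = 0.000404, limma). MRPL2 and MRPL16, whose bacterial counterparts lie near the peptidyl transferase centre, rose 1.70-fold (0.77 ± 0.12) and 1.77-fold (0.83 ± 0.28). MRPL2 went from -0.58 and -0.37 to 0.27 and 0.32, and MRPL16 from -0.54 and -0.35 to 0.48 and 0.27. For both genes the PBS array of calf 301 was the lowest of the 4.

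MRPL32, which the m-AAA protease of the inner membrane trims before it joins the ribosome, rose by 0.46 in calf 301 and by 0.91 in calf 303 (0.68 ± 0.32, adjusted p = 0.00392, limma). The others of the 12 largest rises were close to each other in size. They were MRPL52, found in mitochondria only (0.64 ± 0.04), MRPL20 (0.63 ± 0.12), the exit tunnel protein MRPL23 (0.63 ± 0.04) and MRPS18A (0.62 ± 0.17), which sits in the large subunit despite its symbol. Scaled to the hybridization controls, MRPS28 stood at 0.11 and MRPL12 at 0.00, and the other 8 of these 12 beside MRPL15 and MRPS7 lay between -0.23 and -0.01.

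The falls were smaller than the leading rises, with 1 exception. MRPS36 read 0.55 and 0.60 with PBS and -1.29 and -0.91 with APP. It fell 3.19-fold (-1.67 ± 0.23, SD, n = 2 calves, adjusted p = 4.98e-05, limma), which put it at rank 141 of all genes in the size of the fall. It was the 1 member that fell at least 2-fold in both calves, as did 6.29% of all genes. As background, the product of MRPS36 was first listed as a small subunit protein and is now known as KGD4, a subunit of the 2-oxoglutarate dehydrogenase complex of the citric acid cycle. Without it, 7 of 23 MRPS genes rose and 2 fell.

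MRPL49, a protein found in mitochondria only, read 0.17 and 0.48 with PBS and -0.58 and -0.21 with APP (fell 1.64-fold, -0.71 ± 0.04, adjusted p = 0.00082, limma). MRPS14, a small subunit protein with a bacterial counterpart, read 0.27 and 0.31 with PBS and -0.46 and -0.36 with APP (fell 1.63-fold, -0.70 ± 0.04). Its 2 probe sets gave nearly the same change. MRPL18 (-0.62 ± 0.14), the exit tunnel protein MRPL22 (-0.55 ± 0.07), MRPL9 (-0.54 ± 0.02), MRPL51 (-0.54 ± 0.01), MRPL28 (-0.50 ± 0.14) and MRPS15 (-0.50 ± 0.05) followed. MRPL3, whose bacterial counterpart reaches the peptidyl transferase centre, fell by 0.42 (SD 0.03), MRPL19 by 0.35 (SD 0.02) and MRPL30 by 0.33 (SD 0.01). MRPL13 and MRPL42 fell by 0.30 each. In a fit without the replicate block the falls of MRPL3, MRPL13, MRPL19, MRPL30, MRPL42 and MRPL51 no longer passed, which left 8 falls, and 21 rises remained (without MRPS2 and MRPS18B).

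**Figure D2:**
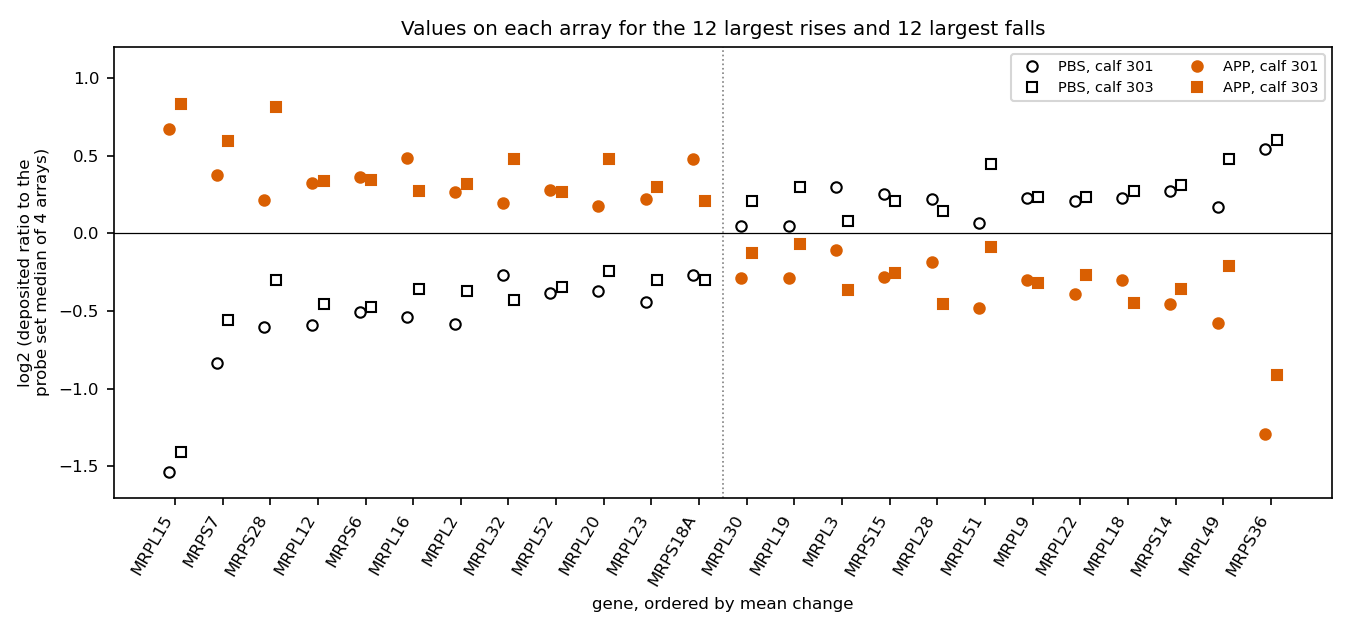
Log2 ratio on each array for the 12 members with the largest rise (left of the dotted line) and the 12 with the largest fall (right), circles for calf 301, squares for calf 303, open for PBS and filled for APP. The 2 filled symbols lie on the opposite side of the open ones for every gene shown, and the gap is widest for MRPL15 (-1.54 and -1.40 against 0.67 and 0.83) and MRPS36 (0.55 and 0.60 against -1.29 and -0.91).

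Arrays of the treatments did not overlap for 31 members that were higher with APP and 24 that were lower, against 36.6% and 37.2% of all genes. Opposite signs in the 2 calves were seen in 8 members, none of which passed the test. The remaining 59 (88.1%) had the same sign in both calves, as did 84.7% of all genes. Across the 67 members, which share the same 4 arrays and are not independent, the changes of the calves correlated with r = 0.95, against 0.93 across all genes.

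**Figure D3:**
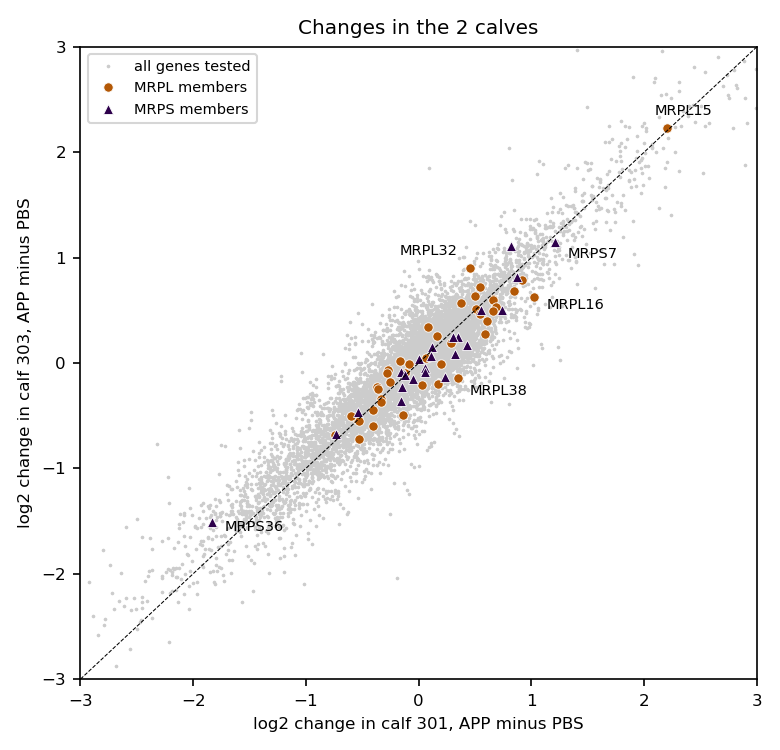
Log2 change in calf 303 against that in calf 301 for all genes tested (grey), MRPL members (orange circles) and MRPS members (purple triangles), with a dashed line where both calves are equal. Genes beyond the axis limits are not drawn. The members follow the line, with MRPL15 at the upper end, MRPS36 at the lower end, and MRPL38 (0.35 and -0.14) below it.

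The calves themselves were also compared. In the calf term of the same fit, no member was higher or lower in calf 303 than in calf 301 (limma, adjusted p under 0.05), where 1.27% of all genes were higher, 0.437% were lower and 1.7% passed in either direction. At an unadjusted p under 0.05, 6 members were higher and 1 was lower in calf 303. The largest gaps between the calves in the response to APP were those of MRPL38 (0.35 in calf 301 and -0.14 in calf 303), MRPL32 (0.46 and 0.91) and MRPL16 (1.02 and 0.63). MRPL38, a protein of the central protuberance, did not pass the treatment test (adjusted p = 0.553). The difference in response between 2 single animals was not tested.

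Grouped by origin, the 8 largest rises all belonged to proteins with a bacterial counterpart. This class also held falls, and among all genes 23% rose and 29.7% fell. Of 29 listed for the large subunit, 25 were measured, of which 11 rose (44%), 8 fell (32%) and 6 did not pass (median 0.09, median size 0.50). Beside those named above, MRPL35 (0.51), MRPL21 (0.50), MRPL4 (0.47) and MRPL24 (0.43) rose. MRPL10, MRPL11, MRPL14, MRPL27, MRPL34 and MRPL36 did not pass, with changes from -0.19 (MRPL14) to 0.21 (MRPL36). Of 16 listed for the small subunit, 12 were measured, of which 4 rose (33.3%), 2 fell (16.7%) and 6 did not pass (median 0.07). MRPS2 rose by 0.30, and MRPS9, also at 0.30, fell just outside the threshold (adjusted p = 0.05 for MRPS9 and 0.0358 for MRPS2, limma). MRPS5, MRPS11, MRPS16, MRPS17 and MRPS24 lay between -0.19 and 0.09 and did not pass.

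Proteins listed as found in mitochondria only changed less in the small subunit than elsewhere in the family, as a description with no test. Of 10 listed there, 9 were measured, and MRPS18B was the 1 that rose (0.27 ± 0.05, adjusted p = 0.0465, limma). The other 8, namely MRPS22, MRPS23, MRPS25, MRPS26, MRPS27, MRPS31, MRPS34 and MRPS35, did not pass and lay between -0.26 and 0.20. The value of MRPS34 (-0.10) averages probe sets at 0.36 and -0.57, the latter of which fell by itself. The median size over the 9 genes was 0.119. In the large subunit, 20 of 22 were measured, of which 7 rose (35%), 3 fell (15%) and 10 did not pass (median 0.08). The risers were MRPL52, MRPS18A, MRPL46 (0.61), MRPL48 (0.58), MRPL55 (0.57), MRPS30 (0.53), another large subunit protein with an MRPS symbol, and MRPL37 (0.50). MRPL49, MRPL51 and MRPL42 fell. Those that did not pass were MRPL38, MRPL39, MRPL41, MRPL43, MRPL44, MRPL45, MRPL50, MRPL53, MRPL57 and MRPL58, with changes from -0.31 (MRPL39) to 0.24 (MRPL41). MRPL58, a peptidyl-tRNA hydrolase that became part of the ribosome, changed by -0.09 (adjusted p = 0.491).

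Structural parts of the large subunit held both responders and genes near 0. In the factor-binding stalk MRPL12 rose, while MRPL10 and MRPL11, which form its base, changed by 0.09 and -0.07 and did not pass. Around the exit tunnel, through which the new protein leaves, MRPL23 and MRPL24 rose and MRPL22 fell. MRPL45, which ties the ribosome to the inner membrane, changed by 0.17 in calf 301 and -0.20 in calf 303. In the central protuberance MRPL46 and MRPL48 rose and MRPL38 did not pass. MRPL45 was among the 4 members nearest 0 in the mean of the calves, with MRPS22 (0.02), MRPS25 (0.01) and MRPS35 (-0.01), all small subunit proteins found in mitochondria only.

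The MRPS18 genes encode related proteins in different parts of the ribosome. The lists used place MRPS18A and MRPS18B among proteins found in mitochondria only. Their relative MRPS18C, which was not measured, was listed with the proteins that have a bacterial counterpart. The class of MRPS18A and MRPS18B therefore rests on the list chosen. MRPS18A, in the large subunit, went from -0.27 and -0.30 with PBS to 0.48 and 0.21 with APP (1.54-fold, adjusted p = 0.00243, limma). MRPS18B, in the small subunit, went from -0.08 and -0.19 to 0.23 and 0.06 (0.27 ± 0.05). Arrays did not overlap for either gene, and the change of MRPS18A was the larger in both calves.

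Single probe sets showed where a gene's value rests on disagreeing parts. Among the 84 member probe sets there were 29 rises, 15 falls and 40 that did not pass, against 16.3% and 23.6% of all probe sets in each direction and 39.9% in either. The probe sets of MRPL39, a relative of threonyl-tRNA synthetase, gave 0.07, 0.02 and -1.03. The last of these fell on its own (adjusted p = 0.00133 over probe sets, limma), while the gene as a mean did not pass (-0.31, adjusted p = 0.0581). MRPS34 had probe sets at 0.36, which did not pass, and -0.57, which fell (adjusted p = 0.00785), for a mean of -0.10. For MRPL30 one probe set stood at 0.00 and the other at -0.67, and the fall of the gene comes from the latter. What the discordant probe sets of these 3 genes bind was not tested.

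**Figure D4:**
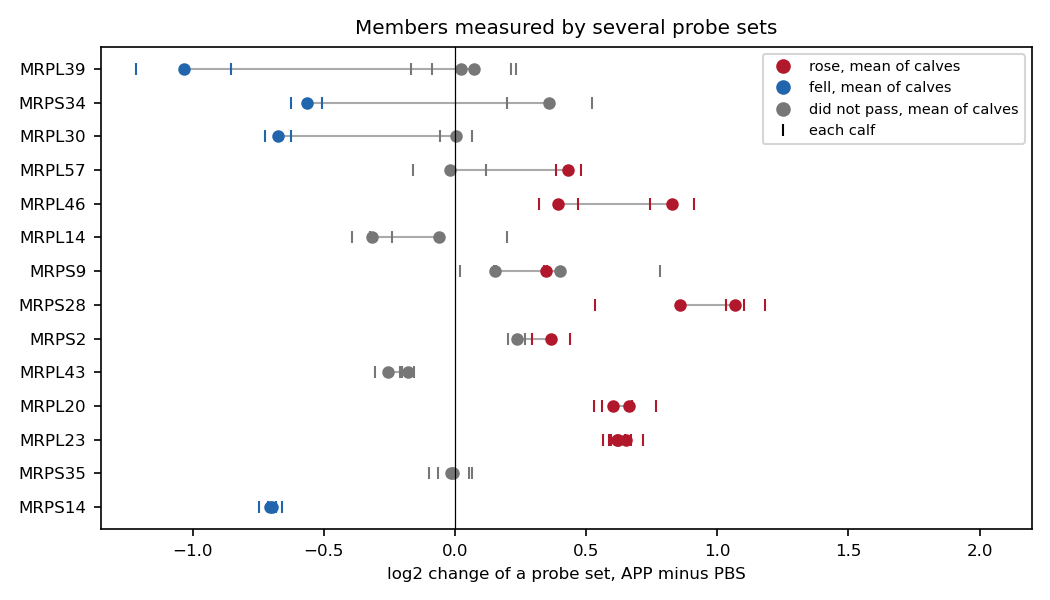
Log2 change of each probe set for the 14 members measured by several, as circles for the mean of the calves coloured by call, joined by a grey line, with ticks for each calf. The spread is widest for MRPL39 (from -1.03 to 0.07), MRPS34 (from -0.57 to 0.36) and MRPL30 (from -0.67 to 0.00), and the 3 probe sets of MRPL23 lie together.

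Each array was also left out in turn, in a fit with no block, for which 21 rises and 8 falls on all 4 arrays are the reference. Rises then numbered 8 and falls 4 when the PBS array of calf 301 was absent, or 19 and 8 for its APP array. For calf 303 they numbered 10 and 2 in the absence of its PBS array and 20 and 8 in the absence of its APP array. The rises of MRPL15, MRPS7, MRPS6, MRPL12, MRPL16, MRPL2 and MRPL52 and the falls of MRPS36 and MRPS14 passed in all 4 of these fits. Limma's standard error lay between 0.095 and 0.133 for the 67 members.

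Mitochondrial ribosomal proteins that carry other symbols rose in 4 of 5 cases, leaving out MRPL58, which is a member, beside 23% of all genes. Their median was 0.59, and none of the 5 fell. Scaled to the hybridization controls, their median was -0.26, none rose and 2 fell. AURKAIP1 went from -0.59 and -0.35 with PBS to 0.26 and 0.37 with APP (0.79 ± 0.09, adjusted p = 0.000574, limma). PTCD3, a pentatricopeptide repeat protein of the small subunit, rose by 0.62 in each calf, and DAP3, the GTP-binding protein of the small subunit, rose by 0.63 and 0.56. GADD45GIP1, of the large subunit, rose by 0.19 and 0.61, and CHCHD1 changed by -0.10 (adjusted p = 0.415). CHCHD1 was higher in calf 303 than in calf 301 (adjusted p = 0.0464).

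Other genes of mitochondrial gene expression did not follow 1 direction. Of 10 measured translation factors 1 rose (10%) and 3 fell (30%, median -0.11), where 23% of all genes rose and 29.7% fell. TUFM, the elongation factor that delivers aminoacyl-tRNA, rose by 0.27. MTIF2, the initiation factor, fell by 1.01 (SD 0.30), the release factor MTRF1L by 0.56 and GUF1 by 0.39. Of 20 factors that assemble the mitochondrial ribosome 1 rose (5%) and 7 fell (35%, median -0.02). NSUN4, a ribosomal RNA methyltransferase, rose by 1.18 in calf 301 and 0.62 in calf 303, while TFB1M, which dimethylates the small subunit RNA, fell by 1.27 and 0.78. GTPBP10, a GTPase of large subunit assembly, fell by 0.66 and the methyltransferase MRM2 by 0.57.

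Of 14 genes for mitochondrial transcription and RNA processing, 6 rose (42.9%) and 4 fell (28.6%, median 0.21). Among all genes 23% rose and 29.7% fell. TBRG4, which stabilises certain mitochondrial mRNAs, rose by 1.47 in each calf, the transcription initiation factor TFB2M by 0.94 and the exoribonuclease PNPT1 by 0.86. GRSF1, of the mitochondrial RNA granules, fell by 0.88, the RNase P subunit TRMT10C by 0.67 and the elongation factor TEFM by 0.46. Of 15 aminoacyl-tRNA synthetase and amidotransferase genes, 2 rose (FARS2 by 0.45 and GATC by 0.38) and 4 fell (median -0.12). These shares were 13.3% and 26.7%. The largest falls were those of the arginine, histidine and isoleucine enzymes RARS2 (-1.29 ± 0.18), HARS2 (-1.17 ± 0.09) and IARS2 (-1.07 ± 0.07). Among genes encoded in mitochondrial DNA, none had a named probe set, so the products of these ribosomes were not analysed here.

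Of 5 measured regulators of nuclear genes for mitochondria, 4 rose, beside 23% of all genes. MYC, the growth transcription factor, went from -1.26 and -1.17 with PBS to 0.61 and 0.66 with APP (1.85 ± 0.03, adjusted p = 2.05e-05, limma). PPRC1, a coactivator of the PGC-1 family, rose by 0.86, with its 4 probe sets between 0.28 and 1.49. NRF1 rose by 0.84 in calf 301 and 0.28 in calf 303, YY1 by 0.29, and PPARGC1A changed by 0.06 (adjusted p = 0.621).

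The cytosolic ribosome and its assembly were set beside the mitochondrial family. Of 68 genes matched as cytosolic ribosomal proteins, 10 rose, 3 fell and 55 did not pass, with a median of -0.04 and a median size of 0.087. Among all genes 23% rose and 29.7% fell. The largest changes were those of RPS4Y1 (0.56), RPS12 (0.47), RPL3L (0.46), RPL5 (-0.31), RPL9 (-0.30) and RPL22 (-0.29), and the probe sets of RPS4Y1, RPS12 and RPL9 differed by more than 1. Copies of these genes are numerous, so their probe sets may share signal. All 40 measured genes of ribosome biogenesis, which act in the nucleolus and nucleus, rose (median 1.23), among them PPAN (2.05), TSR1 (2.05) and the RNA methyltransferase FBL (1.95). Scaled to the hybridization controls, 22 of these rose and 5 fell.

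Subunits of oxidative phosphorylation, which include the partners of the proteins made on mitochondrial ribosomes, rose in 6 and fell in 22 of 79 cases (median -0.15). These shares were 7.6% and 27.8%, beside 23% and 29.7% of all genes, so falls were about as frequent as among all genes and rises were fewer. ATP5IF1, the inhibitor of ATP synthase, fell by 1.01, the complex III core protein UQCRC2 by 0.90, with its probe sets at -1.37 and -0.43, and NDUFA8 of complex I by 0.85. COX7A1 (0.70), UQCRQ (0.63) and COX7A2 (0.62) rose. The difference between these lists and the mitochondrial ribosomal proteins was not tested. Among the named risers of these other lists, MYC, PPRC1, TBRG4, TFB2M, PNPT1, NSUN4, PPAN, TSR1 and FBL stayed at or above 0 on the scale of the hybridization controls, and the others stood below 0 there.

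**Figure D5:**
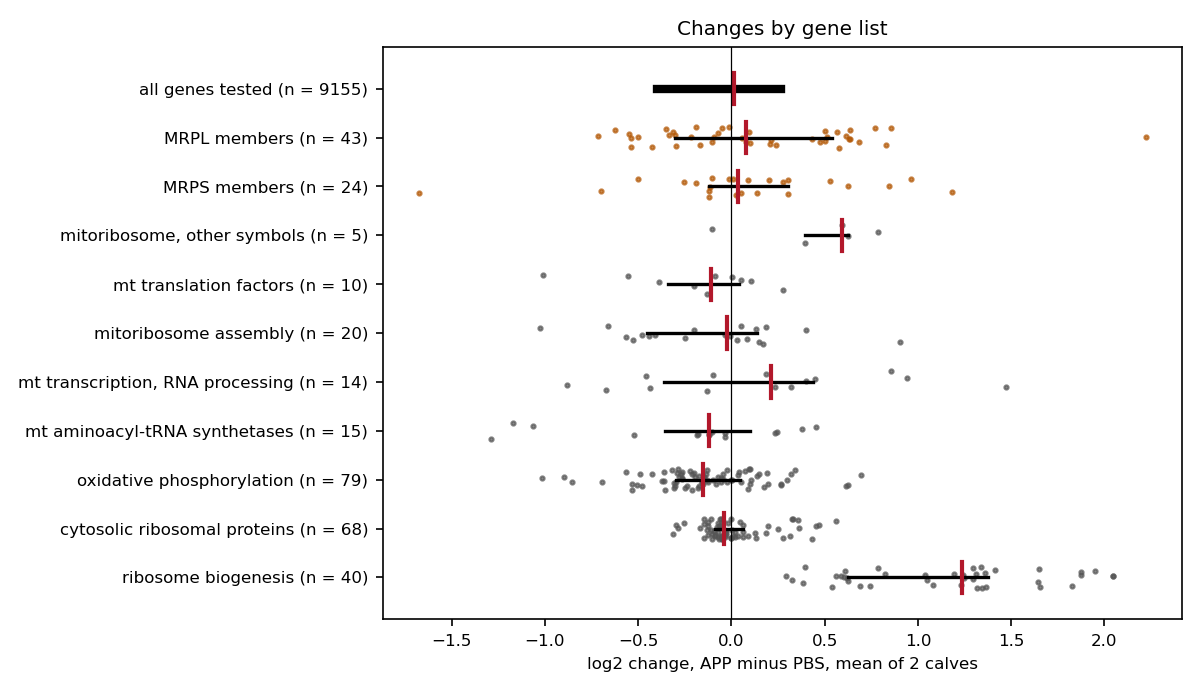
Log2 change, APP minus PBS as the mean of 2 calves, of each gene (points) in the members and in the other lists, with a red bar at the median and a black bar over the interquartile range. All 9155 genes are drawn as bars alone. The median of the MRPL members is 0.08 and that of the MRPS members 0.04 (-0.77 and -0.82 when scaled to the hybridization controls), while ribosome biogenesis lies at 1.23 and oxidative phosphorylation at -0.15.

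Genes next to a member on the chromosome moved either way. Taking the protein-coding gene on either side in RefSeq (ARS-UCD2.0, order only) and leaving out other members, 7 of 30 measured neighbours of members that rose had risen and 12 had fallen. Of 12 neighbours of members that fell, 1 had risen and 6 had fallen. Of 29 beside members that did not pass, 9 had risen and 12 had fallen. Among all genes 23% rose and 29.7% fell, and the difference from these shares was not tested. The neighbours with the largest rise and the largest fall were JAM2, beside MRPL39, which rose by 4.22, and MITD1, beside MRPL30, which fell by 2.34.

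Cell markers moved with the treatment on the same arrays. The gamma delta T cell list had 8 measured genes, without TRDC and GATA3. Most of them (CD3D, CD3E, CD3G, CD247, CD7 and IL2RG) are shared with other T cells, so the list is not specific to gamma delta cells. Of the 8, 5 fell and 1 rose, where 29.7% of all genes fell and 23% rose. The sum of their ratios was 9.55 and 9.63 with PBS and 6.53 and 6.63 with APP. Of 6 monocyte and dendritic cell genes 3 rose and none fell, with changes from -0.12 to 2.31 (CD68) and a median of 0.29. The upper quartile of these changes was 0.46, so CD68 stood apart. Their sum, which includes CD68, was 5.03 and 5.13 with PBS and 7.05 and 7.89 with APP. Both measured B cell genes fell (sum 2.45 and 2.62 with PBS, 1.48 and 1.67 with APP). Of 3 alpha beta T cell genes CD8A rose by 1.08, CD8B fell by 0.64 and CD4 did not pass (sum 1.77 and 4.41 with PBS, 2.22 and 4.51 with APP). Of 2 NK cell genes KLRD1 rose by 0.30, and NCR1 changed by -0.10 and did not pass. No platelet or erythroid gene passed. CD8A and CD8B were also higher in calf 303 by 1.59 and 2.30. No marker was at 0, but the values hold no levels, so the labelled cell type could not be checked by presence. The part of these markers in the changes of the members was not tested.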

How the data were processed

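RNA was hybridized to 4 arrays from gamma delta T cells, PBS and APP for each of 2 calves, and groups were taken from the array titles. The authors summarised probes with RMA, per the submitters' processing notes (no version). The deposited values are linear ratios of each probe set to its own median over the 4 arrays, a unit found from the values (0.0264 to 6.814), so levels are lost and changes near background are compressed. Arrays have no depth, and their number limits precision.

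Ratios were log2 transformed with no pseudocount or further scaling. All 112 control probe sets were left out, leaving 24016. Symbols came from the platform table, updated by Entrez identifier through RefSeq (ARS-UCD2.0), and 13292 probe sets with 1 symbol gave 9155 genes. Probe sets of a gene were averaged. Limma 3.58.1 (R 4.3.3, lmFit and eBayes, two-sided) was fitted to all genes with the calf as a block (1 residual degree of freedom), with Benjamini-Hochberg adjustment at 0.05. The block follows from the titles, which name the same animals in both groups. As a check, the calf difference on the PBS arrays and that on the APP arrays had r = 0.514 over probe sets. The script was tested on simulated data.

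The members and lists were chosen with earlier results of these data known. Named by rule were the 12 largest rises and falls that passed and were alike in sign in both calves, the MRPS18 genes, members with probe sets differing by over 0.5, the 3 largest gaps between calves, the 4 nearest 0, and up to 3 genes per direction in other lists. Other genes were named after their values were seen. Fits tried as alternatives left out the block or 1 array, centred, quantile-normalized or control-scaled the arrays, added 0.1 before the logarithm, or summarised probe sets otherwise. No sequence is given.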

Additional observations from a re-analysis of the deposited data

Results flagged for a closer look

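A signal outside the main measurement stood out. The hybridization controls bioB, bioC and bioD (14 probe sets), which are added to each sample before hybridization and were left out of the test of genes, read higher with APP than with PBS by 0.761 on the log2 scale in calf 301 and by 0.941 in calf 303. The cre controls differed by 0.199 and 0.278, and the dap, lys, phe and thr controls by 0.641 and 0.289. When arrays were scaled to bioB, bioC and bioD alone, 2 of the 23 members that rose kept that call, 13 did not pass and 8 fell. The cause was not tested.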

How the results depend on the processing

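Centring arrays on their median (23 members rose, 14 fell), quantile normalization (23 and 11), a pseudocount of 0.1 (24 and 14), probe sets without the suffix s, x or a (20 and 11 among the genes left) and the median of probe sets (22 and 14) kept the member counts within 1.5 times of those reported. With no replicate block 8 members fell, 5 of them MRPL genes, and 1399 genes rose in all. In the other lists that fit gave 0 rises of translation factors, 1 of aminoacyl-tRNA synthetases, 4 rises and 0 falls of cytosolic ribosomal proteins, and 3 rises and 14 falls of oxidative phosphorylation subunits, and it changed no other count by over 1.5 times. Quantile normalization gave 0 falls of cytosolic ribosomal proteins.

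Leaving out 1 array at a time, without the block, gave 8 to 20 members that rose (6 to 15 MRPL, 2 to 5 MRPS) and 2 to 8 that fell (0 to 5 MRPL, 2 to 3 MRPS). Among all genes 745 to 1292 rose and 1305 to 2012 fell. The median change of the members was between -0.0001262 and 0.09577, lowest without the APP array of calf 301. No blocked fit was possible there.

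Scaling to the hybridization controls left 2 members that rose (1 MRPL, 1 MRPS) and 52 that fell (32 and 20), 1 member probe set that rose and 64 that fell, 286 genes that rose and 8182 that fell, and a median of -0.7928. Rises and falls became 0 and 3 for proteins under other symbols (MRPL58 included), 0 and 10 for translation factors, 0 and 19 for assembly factors, 1 and 11 for transcription and RNA processing, 0 and 15 for synthetases, 1 and 2 for regulators, 0 and 67 for cytosolic ribosomal proteins, 0 and 76 for oxidative phosphorylation and 22 and 5 for ribosome biogenesis. Of 37 members above 0 as deposited, 33 lay below 0 on that scale. Among the members named by rule, the sign turned for MRPL16 (-0.025), MRPL2 (-0.084), MRPL20 (-0.22), MRPL23 (-0.22), MRPL32 (-0.17), MRPL38 (-0.75), MRPL52 (-0.22), MRPS18A (-0.23), MRPS18B (-0.58), MRPS22 (-0.83), MRPS25 (-0.84) and MRPS6 (-0.0072). Without suffixed probe sets MRPL30 stood at 0.0046, since its falling probe set carries a suffix. The turned signs on the hybridization control scale follow by construction, since that scaling lowered every gene's mean change by 0.851. What made the hybridization controls read higher with APP was not tested. With 2 arrays per group, and no levels to show which probe sets lie near background, the smallest member change that passed was 0.27.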

Other observations

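The 3 prime minus 5 prime signal of control transcripts, a sign of RNA integrity, changed with APP by -0.33 in calf 301 and 0.03 in calf 303 for actin, by -0.12 and -0.00 for GAPDH, and by -0.31 and -0.19 for EF1A. Its part in the changes of the members was not tested.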
